A study of Mus musculus with 31 samples.

Results

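Axon guidance ligands and receptors were taken as the protein-coding mouse genes whose symbols name an Eph receptor, an ephrin, a semaphorin of classes 3 to 7, a plexin, a neuropilin, a Slit, a Robo, a netrin (Ntn1 to Ntn5), Dcc or an Unc5 receptor. The rule found 69 genes, of which 35 encode ligands and 34 encode receptors. They comprise 14 Eph receptors, 8 ephrins, 20 semaphorins, 11 plexins and neuropilins, 7 Slits and Robos, and 9 netrins and netrin receptors. The bulk table lists 34865 genes and holds 68 of the 69, without Ntn3, and the Smart-seq2 table lists 55487 genes and holds all 69. Another 3 matching symbols, Plxna4os1, Plxna4os2 and Plxna4os3, are non-coding genes antisense to Plxna4 and were left out.

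The bulk libraries were made from E10.5 (embryonic day) diencephalon of wild-type mice, 3 from the dorsal and 3 from the ventral part. The Smart-seq2 libraries, made with a full-length method for very small amounts of RNA, came from medial cortex at E11.5 of Emx1-CreERT2::MADM-11::Axin2LacZ/+ crosses. There, 13 libraries carried the genotype label Emx1-cre(+/-)::MDMD::Axin2(-/-) and 12 the label Emx1-cre(+/-)::MDMD::Axin2(+/+), so both genotypes shared the Emx1-driven recombinase and the marker chromosome. The labels call each of these samples a single cell. In MADM (mosaic analysis with double markers), recombination between homologous chromosomes produces mutant and wild-type cells of different colours in the same tissue, here with the markers on the chromosome that carries Axin2, a feedback inhibitor of Wnt signalling. The Emx1 promoter limits recombination to cells with a history of Emx1 expression, mostly dorsal telencephalon, and CreERT2 acts only after tamoxifen, whose dose and time were not given. No strain, embryo, litter or pooling was given, so p-values below measure the spread between libraries, which may be technical.

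Axon guidance genes encode secreted or membrane-bound cues and the receptors by which growth cones, and also migrating cells and progenitors, read them. Ephrin-A proteins are anchored to the membrane by a lipid and bind mainly EphA receptors, ephrin-B proteins span the membrane and bind mainly EphB receptors, and both classes can signal in the ligand-bearing cell too. Semaphorins signal through plexins, with neuropilins as co-receptors for the secreted class 3, Slits repel through Robo receptors, and netrin-1 attracts through Dcc and repels through Unc5 receptors. In the embryonic forebrain these systems place thalamic, hypothalamic and cortical axons and keep neighbouring compartments apart.

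To show the start regions of genes called in either direction, promoters of 4 members are printed. Each runs from 250 bases before to 50 bases after the RefSeq start, on GRCm38.p6. They belong to the members with the smallest edgeR adjusted p in each direction for which a promoter was available. Plxna2 and Epha5 were higher in dorsal libraries, and Efna5 and Ephb1 were higher in ventral libraries. Capitals mark a match to the GC box (GGGCGG, or CCGCCC when it lies on the other strand) or to the homeodomain site TAATTA.
Plxna2 promoter, chr1:194619579-194619878, plus strand: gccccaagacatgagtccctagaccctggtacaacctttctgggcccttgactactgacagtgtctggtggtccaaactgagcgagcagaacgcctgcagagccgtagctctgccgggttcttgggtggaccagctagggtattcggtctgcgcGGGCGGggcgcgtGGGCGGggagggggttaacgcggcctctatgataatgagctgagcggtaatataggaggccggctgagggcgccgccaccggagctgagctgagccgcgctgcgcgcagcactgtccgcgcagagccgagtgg
Epha5 promoter, chr5:84417333-84417632, minus strand: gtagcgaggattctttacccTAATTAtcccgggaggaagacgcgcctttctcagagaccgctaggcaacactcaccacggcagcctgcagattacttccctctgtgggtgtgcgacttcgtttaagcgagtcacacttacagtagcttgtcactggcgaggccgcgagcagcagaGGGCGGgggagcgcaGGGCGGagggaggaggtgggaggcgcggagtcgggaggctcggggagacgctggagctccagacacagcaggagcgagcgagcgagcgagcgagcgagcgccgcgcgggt
Efna5 promoter, chr17:62881268-62881567, minus strand: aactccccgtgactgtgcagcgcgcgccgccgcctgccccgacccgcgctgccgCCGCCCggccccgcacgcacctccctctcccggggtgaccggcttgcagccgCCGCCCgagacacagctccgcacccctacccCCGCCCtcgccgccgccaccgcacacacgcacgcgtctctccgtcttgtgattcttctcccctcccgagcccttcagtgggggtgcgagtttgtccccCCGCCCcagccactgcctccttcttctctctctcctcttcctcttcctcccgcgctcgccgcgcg
Ephb1 promoter, chr9:102354644-102354943, minus strand: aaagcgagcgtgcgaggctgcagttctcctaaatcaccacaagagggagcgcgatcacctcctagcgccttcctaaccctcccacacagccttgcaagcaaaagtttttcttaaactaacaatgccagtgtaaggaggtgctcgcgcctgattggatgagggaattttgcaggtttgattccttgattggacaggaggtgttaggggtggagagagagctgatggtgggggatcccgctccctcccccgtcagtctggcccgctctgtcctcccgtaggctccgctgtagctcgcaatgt
The RefSeq table held a promoter for 59 of the 69 members and for 19 of the 20 members past the threshold below, Plxna4 being the one without. On either strand, GGGCGG was present in 72.88% of the member promoters and in 35.91% of the 27025 promoters of the table. The member promoters had a median GC content of 64.67%, against 52.67% over all promoters of the table, and GC content was not matched in this count. TAATTA stood in 5.085% of the member promoters against 5.314% of all, and among members past the threshold it stood in those of Epha5 and Robo3. The E-box CAGCTG stood in 15.25% of the member promoters against 16.11% of all, and the TCF/LEF core CTTTGAT in 1.695% against 3.722%. Neither of these last motifs was found in the promoters of members past the threshold, 16 higher in dorsal and 3 higher in ventral, and a match or its absence describes only the letters in this window.

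The bulk comparison asks how guidance genes differ between the dorsal and the ventral diencephalon. The libraries held between 17604166 and 20838002 counts. Among the libraries labelled dorsal, 8 of 9 tested genes of the dorsal diencephalon list were higher, and among those labelled ventral all 11 tested genes of the hypothalamus list were higher. The dorsal libraries also carried genes known from the cortex: all 8 of that list were higher in dorsal, with a summed level of 1732 to 1985 CPM (counts scaled to the library total) in dorsal against 51.3 to 56.4 CPM in ventral libraries. The ventral libraries carried transcripts of intestine and pancreas at a summed 3029 to 11149 CPM, against 12.5 to 14.3 CPM in dorsal libraries. They also carried all 6 tested epithelial genes at higher levels (summed 87.7 to 289 CPM in ventral against 1.68 to 5.62 CPM in dorsal libraries) and both tested macrophage genes, Lyz2 and Ctss (whole list 6.91 to 44.7 CPM in ventral against 1.46 to 6.59 CPM in dorsal libraries). Of 9 mesenchymal genes, 1 was higher in ventral. Ventral library 3 stood apart: the Pearson correlation of its log CPM was 0.879 with ventral library 1 and 0.867 with ventral library 2, against 0.981 between those, and it had counts in 17827 genes against 20306 to 21691 in the other 5 libraries. In dorsal, library 3 stood at 0.955 with library 1 and 0.951 with library 2, against 0.9904 between those. Libraries 1 and 2 of each region were the closest pairs, but none agreed within sampling noise, and each was counted.

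Most of the guidance genes that differed between the regions were higher in dorsal libraries. Of the 62 members with a mean of at least 1 CPM, 17 were higher in dorsal and 3 were higher in ventral at an adjusted p under 0.05 (edgeR quasi-likelihood test, Benjamini-Hochberg adjustment over all 14701 genes tested). The same test called 7.14% of all genes tested higher in dorsal, 9.54% higher in ventral and 16.7% in either direction. The median log2 fold change (dorsal over ventral) was 0.93 over the 62 members against 0.01 over all genes tested, and 49 of the 62 were positive. In 29 members the lowest dorsal library exceeded the highest ventral one (19.0% of all genes tested), and in 5 the lowest ventral library exceeded the highest dorsal one (20.0% of all genes tested). The remaining members were the 42 that did not pass, the 6 under the minimum (Epha1, Robo4, Ntn5, Plxnb3, Sema3b and Sema3g) and Ntn3, not analysed here in bulk. The 17 members became 11 without dorsal library 1, and the 3 became 1 without dorsal library 1, dorsal library 2 or ventral library 1. Libraries 1 and 2 alone, an alternative added after seeing the data, gave 43 and 6. The calls over all genes also rose in both directions with libraries 1 and 2 alone, as given in the last section. In bulk tissue, fewer cells of a type and less RNA per cell cannot be told apart. The neural progenitor list had 6 of its 11 genes higher in dorsal and 1 higher in ventral, with sums of 994 to 1253 CPM in dorsal against 688 to 776 CPM in ventral libraries, and the neuronal list had 2 of 13 higher in dorsal and 3 higher in ventral. The part of the cortical, progenitor, gut, epithelial and macrophage transcripts in the differences described next was not tested.

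**Figure D1:**
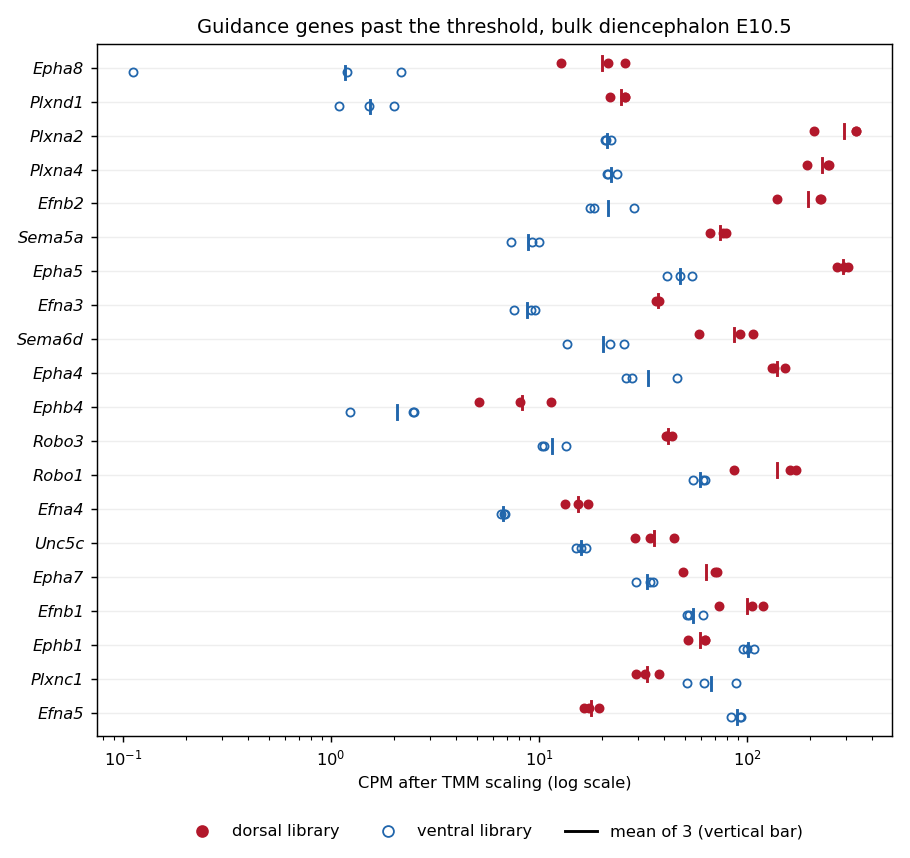
CPM of the 20 guidance genes past the threshold in each of the 3 dorsal libraries (filled circles) and 3 ventral libraries (open circles) of E10.5 diencephalon, on a log axis, with vertical bars at the means of 3, ordered by fold change. Dorsal libraries lie above ventral ones for 17 genes, down to Efnb1, and below them for Ephb1, Plxnc1 and Efna5, with no overlap between regions in any of the 20.

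Among the ligands, 4 of the 8 ephrins were higher in dorsal and 1 was higher in ventral (62.5% called, against 16.7% of all genes tested). Efnb2, the transmembrane ligand of EphB receptors and EphA4, had 224, 227 and 139.6 CPM in dorsal libraries against 17.5, 18.3 and 28.5 CPM in ventral libraries. The lowest dorsal library was several times the highest ventral one, giving a log2 fold change of 3.20 (standard error, SE, 0.29, edgeR adjusted p = 0.000362). Efna3, a lipid-anchored ephrin, had 37.3, 36.4 and 37.8 CPM in dorsal against 7.56, 9.59 and 9.14 CPM in ventral libraries (log2 fold change 2.08, SE 0.21, edgeR adjusted p = 0.000637). Its libraries were even within each region. Efna4 had 15.3, 13.3 and 17.2 CPM in dorsal against 6.57, 6.83 and 6.80 CPM in ventral libraries (log2 fold change 1.18, SE 0.28, edgeR adjusted p = 0.0236). Efnb1, encoded on the X chromosome and known for setting up boundaries between expressing and non-expressing cells, had 106, 119 and 73.0 CPM in dorsal against 61.0, 52.5 and 51.2 CPM in ventral libraries (log2 fold change 0.85, SE 0.22, edgeR adjusted p = 0.0321). These smaller differences kept the regions apart in every library but were sensitive to which libraries were fitted. Efna4 did not pass without dorsal library 1 or 2 or ventral library 1 or 2, nor with no filter on low counts or with a replicate block. Efnb1 did not pass when any 1 of those 4 libraries or ventral library 3 was left out, nor with a minimum of 0.5 CPM in both regions.

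Efna5 ran the other way and was the largest difference towards ventral. This ephrin, known for repelling EphA-bearing axons in topographic maps, had 19.5, 17.3 and 16.4 CPM in dorsal against 93.0, 92.2 and 83.2 CPM in ventral libraries. Every ventral library exceeded every dorsal one several-fold, and the gene was 5.05-fold higher in ventral (log2 fold change -2.33, SE 0.18, edgeR adjusted p = 0.000151). Efna5 lies on chromosome 17 (chr17:62604184-62881317, minus strand), whereas Efna1, Efna3 and Efna4 lie side by side on chromosome 3 (chr3:89271733-89338028), with gaps of 0.0328 and 0.0104 Mb. Of those 3 neighbours, Efna1 was low, at 3.30, 4.19 and 2.73 CPM in dorsal against 1.88, 2.01 and 0.0558 CPM in ventral libraries, and did not pass (edgeR adjusted p = 0.386). Exons of Efna3 and of Efna4 each overlap another annotated gene on the opposite strand, and since no strand setting of the counting was given, reads of those genes cannot be told apart from theirs.

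The ephrins with the highest levels per length did not pass. Efnb3, a midline repellent of corticospinal axons, reached 114, 146 and 83.9 CPM in dorsal against 172, 225 and 109 CPM in ventral libraries. These ranges overlapped, with a log2 fold change of -0.56 (SE 0.30, edgeR adjusted p = 0.262). Per kilobase of merged exon it averaged 36.0 CPM in dorsal and 52.9 CPM in ventral, the highest level of any member over the 6 libraries. Efna2 followed, with 66.7, 72.2 and 52.9 CPM in dorsal against 46.8, 46.4 and 45.8 CPM in ventral libraries. The regions did not overlap, but the difference was small (log2 fold change 0.46, SE 0.18, edgeR adjusted p = 0.127).

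The Eph receptors had 5 members higher in dorsal and 1 higher in ventral out of 13 tested (46.2% called, against 16.7% of all genes tested). Epha5, a receptor of ephrin-A5 and other ephrin-As on forebrain axons, had 305, 269 and 293 CPM in dorsal against 47.7, 41.1 and 54.5 CPM in ventral libraries (log2 fold change 2.60, SE 0.18, edgeR adjusted p = 0.000107). Epha4, which binds ephrins of both classes, had 153, 134 and 132 CPM in dorsal against 26.1, 28.1 and 46.2 CPM in ventral libraries (log2 fold change 2.06, SE 0.25, edgeR adjusted p = 0.0014). Per kilobase both averaged 17.3 CPM in dorsal, against 2.86 CPM for Epha5 and 4.16 CPM for Epha4 in ventral. Epha8, on chromosome 4, had 25.8, 21.4 and 12.8 CPM in dorsal against 2.17, 1.19 and 0.112 CPM in ventral libraries. Its log2 fold change of 4.09 (SE 0.81, edgeR adjusted p = 0.0118) was the largest of the members past the threshold and also the least precise, ventral library 3 holding 2 of the 68 ventral counts. It was 4.92 without ventral library 1 and 3.52 without ventral library 3, where that of Plxnd1 was larger, at 4.21. Ephb2, which lies 0.0934 Mb from Epha8, had 90.3, 96.3 and 94.6 CPM in dorsal against 96.5, 81.7 and 86.3 CPM in ventral libraries and did not pass (log2 fold change 0.09, SE 0.15, edgeR adjusted p = 0.745).

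Smaller differences were measured for Epha7, Ephb4 and Ephb1. Epha7 had 70.0, 71.5 and 49.4 CPM in dorsal against 35.4, 29.1 and 34.1 CPM in ventral libraries (log2 fold change 0.95, SE 0.21, edgeR adjusted p = 0.0182). Ephb4, the ephrin-B2 receptor best known from veins, had 11.4, 8.14 and 5.17 CPM in dorsal against 2.47, 2.49 and 1.23 CPM in ventral libraries (log2 fold change 1.99, SE 0.51, edgeR adjusted p = 0.0323). Beside it, none of the 6 tested endothelial genes was higher in dorsal and 1 was higher in ventral, with sums of 8.66 to 14.3 CPM in dorsal against 10.54 to 21.6 CPM in ventral libraries. Ephb1, which steers retinal axons to the same side of the brain in mice, had 62.6, 62.8 and 52.2 CPM in dorsal against 95.9, 99.6 and 108 CPM in ventral libraries, 1.71-fold higher in ventral (log2 fold change -0.77, SE 0.16, edgeR adjusted p = 0.0152). Libraries of the regions did not overlap for any of these genes, but none of them passed without dorsal library 1 or 2 or ventral library 1 or 2. Exons of Ephb1 and Ephb4 overlap genes on the opposite strand, with the same limit as for Efna3.

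Epha3 had a larger fold change than most receptors above and did not pass. It had 174, 190 and 91.9 CPM in dorsal against 20.5, 21.5 and 0.223 CPM in ventral libraries (log2 fold change 3.43, SE 1.04, edgeR adjusted p = 0.0604). The regions did not overlap, and ventral library 3 lay at 0.0106 times the mean of the other ventral libraries. Without ventral library 3 its log2 fold change was 2.82 with an adjusted p of 0.00147 (edgeR), and without any 1 of the other 5 libraries it was 3.23 to 3.86 and did not pass (edgeR adjusted p 0.0751 to 0.139). Epha2, Epha6, Epha10, Ephb3 and Ephb6 did not pass either, and of these only Epha10 kept the regions apart, with all dorsal libraries higher.

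Of 18 tested semaphorins, 2 were higher in dorsal and none was higher in ventral. The share called was 11.1%, under the 16.7% of all genes tested in either direction but over the 7.14% called higher in dorsal. The median log2 fold change of the 18 was 0.97, and 15 of them were positive. At an unadjusted p under 0.05, 8 of the 18 passed, against 30.6% of all genes tested. Sema5a, a transmembrane semaphorin with thrombospondin repeats that can attract or repel axons, had 79.5, 76.8 and 66.4 CPM in dorsal against 9.24, 9.97 and 7.36 CPM in ventral libraries (log2 fold change 3.07, SE 0.21, edgeR adjusted p = 0.000115). Sema6d, a transmembrane ligand of plexin-A1, had 107, 92.7 and 58.9 CPM in dorsal against 21.8, 25.6 and 13.6 CPM in ventral libraries (log2 fold change 2.08, SE 0.31, edgeR adjusted p = 0.00361). Both kept the regions well apart. Sema5b, the closest relative of Sema5a, had 64.1, 68.2 and 48.7 CPM in dorsal against 20.9, 28.7 and 44.5 CPM in ventral libraries and did not pass (log2 fold change 0.94, SE 0.30, edgeR adjusted p = 0.0688).

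The semaphorins with the highest levels per length were Sema6c and Sema6a. Sema6c had 138, 139 and 107 CPM in dorsal against 84.7, 71.1 and 111 CPM in ventral libraries, which overlapped (log2 fold change 0.53, SE 0.21, edgeR adjusted p = 0.141). Sema6a, a ligand of plexin-A2 and plexin-A4, had 71.3, 68.7 and 42.5 CPM in dorsal against 85.8, 78.6 and 103 CPM in ventral libraries. All ventral libraries lay above all dorsal ones, but the difference did not pass (log2 fold change -0.55, SE 0.24, edgeR adjusted p = 0.16). Sema4a was the other semaphorin with every ventral library above every dorsal one (log2 fold change -0.81, SE 0.26, edgeR adjusted p = 0.0707). None of the secreted class 3 semaphorins passed. Sema3a and Sema3c, secreted cues read through neuropilins, were low in ventral library 3, where Sema3a had 0.669 CPM against 14.2 and 11.9 CPM in the other ventral libraries and Sema3c had 2.51 CPM against 25.3 and 25.9 CPM. Sema3f was instead high there, at 22.6 CPM against 8.06 and 8.13 CPM. The other tested semaphorins without a call were Sema3d, Sema3e, Sema4b, Sema4c, Sema4d, Sema4f, Sema4g, Sema6b and Sema7a.

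Semaphorin receptors held the smallest adjusted p-values of the members. Plxna4 (chr6:32144268-32588192, minus strand), which with neuropilin-1 receives class 3 semaphorins and alone receives class 6, had 249, 246 and 194 CPM in dorsal against 21.3, 23.7 and 21.5 CPM in ventral libraries (log2 fold change 3.37, SE 0.18, edgeR adjusted p = 6.08e-05). Plxna2 (chr1:194618218-194816869, plus strand), a receptor of Sema6a, had 335, 334 and 209 CPM in dorsal against 22.1, 21.03 and 20.7 CPM in ventral libraries (log2 fold change 3.78, SE 0.24, edgeR adjusted p = 8.53e-05). Plxna2 was 13.7-fold and Plxna4 10.4-fold higher in dorsal. Per kilobase, Plxna2 averaged 17.04 CPM in dorsal and 1.24 CPM in ventral, and Plxna4 16.3 CPM in dorsal and 1.57 CPM in ventral, so both stood at a like level within each region. Plxnd1, the receptor of Sema3e known from blood vessels and striatal axons, had 25.9, 25.9 and 22.0 CPM in dorsal against 1.09, 1.52 and 2.01 CPM in ventral libraries, 15.99-fold higher in dorsal (log2 fold change 3.999, SE 0.34, edgeR adjusted p = 0.000271). Exons of Plxna4 overlap its antisense gene Plxna4os3.

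Plxnc1, the receptor of Sema7a, was the plexin higher in ventral. It had 32.1, 37.8 and 29.4 CPM in dorsal against 62.2, 51.3 and 87.9 CPM in ventral libraries, 2.03-fold higher in ventral (log2 fold change -1.02, SE 0.24, edgeR adjusted p = 0.0241). The regions did not overlap, but the call was lost without dorsal library 1, 2 or 3, without ventral library 1, and with a replicate block. An exon of Plxnc1 overlaps another annotated gene on the same strand, so strand cannot tell reads of the shared sequence apart. Plxnb2 and Plxna1 had the highest plexin levels per length and did not pass. Plxnb2, a receptor of class 4 semaphorins, had 180.3, 201 and 132 CPM in dorsal against 119.9, 106 and 119.7 CPM in ventral libraries (log2 fold change 0.57, SE 0.19, edgeR adjusted p = 0.0872). Plxna1 had 142, 157 and 123 CPM in dorsal against 138, 130.02 and 217 CPM in ventral libraries, which overlapped (log2 fold change -0.20, SE 0.23, edgeR adjusted p = 0.602). Nrp1 and Nrp2, the co-receptors shared by the secreted semaphorins, overlapped between regions and did not pass, with log2 fold changes of 0.15 (SE 0.26) and 0.23 (SE 0.29). Plxna3 and Plxnb1 did not pass either.

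**Figure D2:**
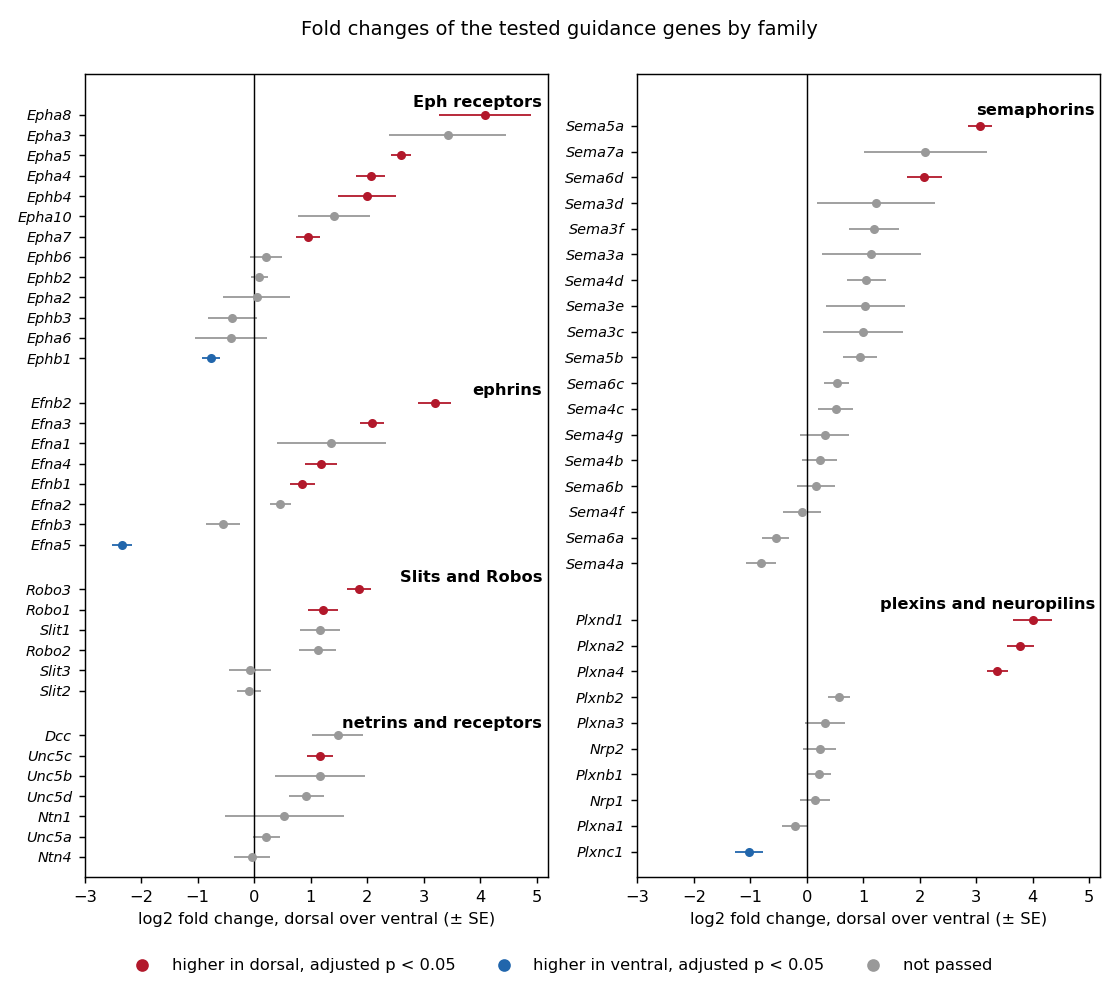
Log2 fold change of CPM, dorsal over ventral, for the 62 tested guidance genes grouped by family, with bars of 1 SE from edgeR, filled red for higher in dorsal, blue for higher in ventral and grey for not passed. Most points lie right of 0, and the widest bars belong to genes such as Epha3, Sema7a, Ntn1 and Sema3d, whose level in ventral library 3 differed from that in the other ventral libraries.

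Of the 6 tested Slits and Robos, 2 receptors were higher in dorsal and none was higher in ventral (33.3% called, against 16.7% of all genes tested). At an unadjusted p under 0.05, which 30.6% of all genes tested met, 4 of the 6 passed. Robo3, which lets commissural axons cross the midline and in mammals has lost most of its affinity for Slits, had 40.5, 41.2 and 43.4 CPM in dorsal against 10.6, 13.5 and 10.4 CPM in ventral libraries (log2 fold change 1.86, SE 0.21, edgeR adjusted p = 0.00101). Robo1, a Slit receptor, had 160.3, 171 and 86.9 CPM in dorsal against 62.7, 55.0 and 61.4 CPM in ventral libraries (log2 fold change 1.22, SE 0.26, edgeR adjusted p = 0.0164). Robo1 was even across ventral libraries and lower in dorsal library 3 than in the other dorsal libraries, and its call was lost without dorsal library 1 or 2 or ventral library 1 or 2. Robo2, its neighbour on chromosome 16 at a gap of 0.846 Mb, had the same layout with 252, 233 and 103 CPM in dorsal against 102, 86.3 and 82.0 CPM in ventral libraries, and fell just outside the threshold (log2 fold change 1.12, SE 0.32, edgeR adjusted p = 0.0508). Without dorsal library 3 its log2 fold change was 1.44 with an adjusted p of 0.00228 (edgeR), and without any 1 of the other 5 libraries it was 0.88 to 1.22 and did not pass (edgeR adjusted p 0.0909 to 0.175).

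The Slit ligands did not pass. Slit1 had 44.5, 54.8 and 30.3 CPM in dorsal against 21.6, 25.3 and 10.98 CPM in ventral libraries, with no overlap (log2 fold change 1.16, SE 0.36, edgeR adjusted p = 0.0626). Slit2 had 54.0, 51.3 and 36.6 CPM in dorsal against 56.0, 49.9 and 45.8 CPM in ventral libraries, which overlapped (log2 fold change -0.10, SE 0.21, edgeR adjusted p = 0.796). Slit3 was lower and also overlapped.

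Among the netrins and their receptors, Unc5c was higher in dorsal and the other 6 tested genes did not pass, none being called higher in ventral. The share called was 14.3%, under the 16.7% of all genes tested in either direction but over the 7.14% called higher in dorsal. The median log2 fold change of the 7 was 0.93, and 6 of them were positive. At an unadjusted p under 0.05, against the same 30.6% of all genes tested, 3 of the 7 passed. Unc5c, a receptor for repulsion by netrin-1, had 33.9, 28.8 and 44.6 CPM in dorsal against 16.8, 15.9 and 15.0 CPM in ventral libraries (log2 fold change 1.17, SE 0.23, edgeR adjusted p = 0.0119). The regions did not overlap, the call was lost without dorsal library 1, and an exon overlaps another gene on the opposite strand. Dcc, the receptor for attraction by netrin-1, had 235, 245 and 62.5 CPM in dorsal against 65.1, 66.3 and 63.5 CPM in ventral libraries. Dorsal libraries 1 and 2 stood well above the ventral ones while dorsal library 3 lay below all of them, and the gene did not pass (log2 fold change 1.48, SE 0.45, edgeR adjusted p = 0.0618). Without dorsal library 3 its log2 fold change was 1.89 with an adjusted p of 0.000664 (edgeR), and without any 1 of the other 5 libraries it was 1.18 to 1.49 and did not pass (edgeR adjusted p 0.101 to 0.185).

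Of the 62 tested members, Dcc was the most reduced in dorsal library 3, at 0.26 times the mean of dorsal libraries 1 and 2, followed by Sema3a at 0.37 times and Robo2 at 0.42 times. The median of this ratio over the 62 tested members was 0.707, and 48 of them were lower in that library. Unc5a, another repulsive netrin receptor, had 35.9, 40.1 and 29.1 CPM in dorsal against 24.4, 28.7 and 37.7 CPM in ventral libraries and overlapped (log2 fold change 0.21, SE 0.24, edgeR adjusted p = 0.599). Ntn1, the attractant itself, was at 6.21, 6.21 and 4.14 CPM in dorsal against 5.59, 5.80 and 0.0558 CPM in ventral libraries, its ventral library 3 value standing on 1 count. Ntn4, Unc5b and Unc5d did not pass.

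By role, 11 of 31 tested receptors and 6 of 31 tested ligands were higher in dorsal, and 2 receptors and 1 ligand were higher in ventral. In either direction, 41.9% of receptors and 22.6% of ligands were called, against 16.7% of all genes tested. The median log2 fold change was 0.95 for receptors and 0.85 for ligands. Pairs of ligand and receptor known to bind each other were looked up after their values were seen. Some were called in opposite directions, such as Efna5 higher in ventral with Epha4, Epha5, Epha7 and Epha8 higher in dorsal. Others were called in the same direction, such as Efnb2 with Epha4 and Ephb4, both higher in dorsal. The calls that held in all 13 alternatives given under the processing were those of 12 members, namely Plxna2, Plxna4, Plxnd1, Epha4, Epha5, Epha8, Efna3, Efna5, Efnb2, Sema5a, Sema6d and Robo3.

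The intracellular machinery of guidance had a median log2 fold change between those of the members (0.93) and of all genes tested (0.01). Of 57 tested effectors (small GTPases, exchange factors, kinases and cytoskeletal adaptors), 8 were higher in dorsal and 3 were higher in ventral, against 7.14% and 9.54% of all genes tested, with a median log2 fold change of 0.25. The largest dorsal differences were those of Rnd2, an atypical small GTPase of migrating neurons, with 361, 418 and 519 CPM in dorsal against 67.1, 64.4 and 47.2 CPM in ventral libraries (log2 fold change 2.86, SE 0.22, edgeR adjusted p = 0.00016), of Dock1, a Rac exchange factor (1.99, SE 0.43, adjusted p = 0.016), and of Vav3, another exchange factor (1.92, SE 0.34, adjusted p = 0.00732). Dpysl4, a collapsin response mediator, was higher in ventral (log2 fold change -1.51, SE 0.16, edgeR adjusted p = 0.000723), as were the kinase Pak3 (-1.12, SE 0.16, adjusted p = 0.00249) and Rnd3, a related small GTPase that acts on the cytoskeleton (-1.09, SE 0.26, adjusted p = 0.0243). The dorsal count was 3 without dorsal library 1 or ventral library 2, 4 without dorsal library 2 or ventral library 1, and 14 without dorsal library 3 or ventral library 3.

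Another 51 guidance genes were tested (adhesion molecules, Wnt and Hedgehog receptors, chemokines, Nogo receptors and the like). Of these, 20 passed with the larger values in dorsal libraries and 2 with the larger values in ventral libraries. Over all genes tested, the matching shares were 7.14% for dorsal and 9.54% for ventral. The 51 genes had a median log2 fold change of 0.78, against 0.01 over all genes tested. Rtn4rl2, a Nogo receptor homologue, had 29.5, 33.4 and 31.3 CPM in dorsal against 1.48, 0.921 and 0 CPM in ventral libraries (log2 fold change 5.26, SE 0.86, edgeR adjusted p = 0.00507). Cdon, a co-receptor of Sonic hedgehog, had 25.2, 23.4 and 31.6 CPM in dorsal against 1.43, 1.30 and 1.62 CPM in ventral libraries (log2 fold change 4.20, SE 0.30, edgeR adjusted p = 0.000124), and Cxcl12, a chemokine for migrating neurons, had 26.2, 21.7 and 15.1 CPM in dorsal against 0.989, 0.921 and 1.73 CPM in ventral libraries (log2 fold change 4.11, SE 0.42, edgeR adjusted p = 0.00061). All 3 kept the regions far apart. In ventral, Ptpro, a phosphatase that acts on Eph receptors, was higher with a log2 fold change of -0.95 (SE 0.27, edgeR adjusted p = 0.0499), and Gap43, a growth cone protein, with one of -0.80 (SE 0.20, edgeR adjusted p = 0.0283). Neither passed without dorsal library 1 or 2 or any 1 of the 3 ventral libraries.

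The Smart-seq2 comparison asks how cortical cells without Axin2 differ from wild-type cells of the same kind of embryo. Each library is labelled as a single cell, and no animal is named for any of them. The genotypes therefore stand as 1 sample each: no test was made, and the spreads below describe libraries only. Values are TPM, scaled by gene length and library total, from which the depth behind a library cannot be read. The targeted gene was lower on average in libraries labelled Axin2-null, but it did not separate the genotypes. Axin2 averaged 6.17 ± 6.996 TPM in libraries labelled Axin2-null and 13.8 ± 8.79 TPM in those labelled wild type (SD, n = 13 and 12). The ranges overlapped, at 0 to 22.4 TPM in Axin2-null and 4.32 to 35.9 TPM in wild-type libraries. The cortical genes Emx1 and Emx2 were detected in all 25 libraries, whereas no gene of the intestine and pancreas list reached a mean of 1 TPM. In 4 of the 13 Axin2-null libraries fewer than 10000 genes were above 0 (8693 to 9624), a level that none of the 12 wild-type libraries showed.

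Guidance genes were mostly lower in libraries labelled Axin2-null, as were most genes. Of the 69 members, 46 averaged at least 1 TPM over the 25 libraries. In mean log2(TPM + 1), none was at least 1 unit higher in Axin2-null (1.39% of 13680 genes over the same minimum) and 8 were at least 1 unit higher in wild type (8.14% of those genes). The difference, null minus wild type, was negative for 40 of the 46, with a median of -0.65, while over all genes 65.9% were negative, with a median of -0.22. Without the 4 Axin2-null libraries with the fewest genes, left out after seeing the data, 4 members were at least 1 unit higher in wild type (4.42% of all genes), 34 of 46 were negative and their median was -0.42, against 54.8% negative and a median of -0.07 over all genes. Within the families the median difference lay between -0.78 for the ephrins and -0.44 for the netrin receptors over the minimum, and no family had a positive median.

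**Figure D3:**
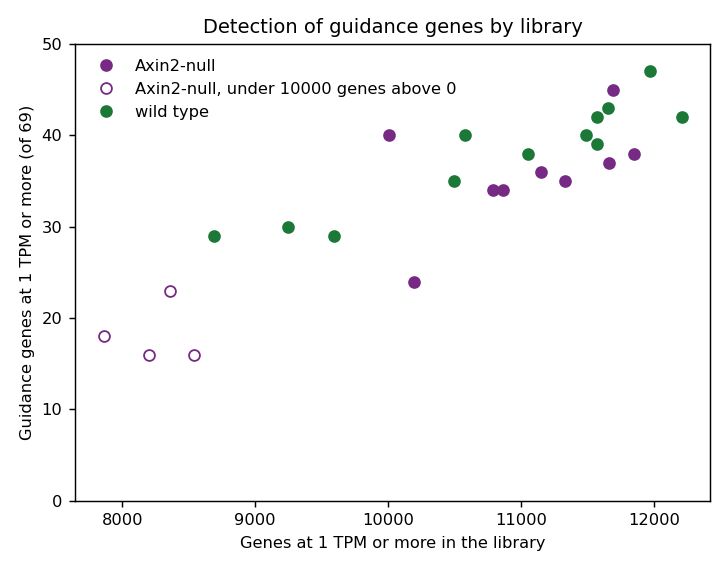
Number of the 69 guidance genes at 1 TPM or more against the number of all genes at 1 TPM or more, for 13 Axin2-null libraries (purple, open where fewer than 10000 genes were above 0) and 12 wild-type libraries (green). The 4 open points sit lowest, at 16 to 23 guidance genes, while the other Axin2-null libraries span 24 to 45 and the wild-type libraries 29 to 47.

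Libraries with more genes detected mostly held more guidance genes, though the share of guidance genes among detected genes also varied. Axin2-null libraries held a lowest of 16, a median of 34 and a highest of 45 members at 1 TPM or more, and wild-type libraries held 29, 39.5 and 47. Over the 25 libraries the count of members correlated with the count of all genes at that level with a Pearson r of 0.889. This is given as a description, since the depth of the libraries is unknown. Members made up 0.187% to 0.400% of the genes detected in Axin2-null libraries, with a median of 0.313%. In wild-type libraries they made up 0.302% to 0.393%, with a median of 0.344%. The summed TPM of the members ranged from 151 to 677 with a median of 307 in Axin2-null libraries, and from 327 to 747 with a median of 495.5 in wild-type libraries. The summed TPM of 11 neural progenitor genes had medians of 2392 in Axin2-null and 2095 in wild-type libraries, and that of 13 neuronal genes had medians of 916 in Axin2-null and 867 in wild-type libraries, with overlapping ranges. Markers of other cell types were lower in Axin2-null for 2 lists: endothelial genes had summed medians of 63.7 TPM in Axin2-null and 134 TPM in wild-type libraries (ranges 36.1 to 158 and 50.9 to 238 TPM), with 2 of 11 at least 1 unit higher in wild type. Mesenchyme and meninges had 126 TPM in Axin2-null and 185 TPM in wild-type libraries, with none of 9 past 1 unit. Macrophage genes had summed medians of 15.6 TPM in Axin2-null and 13.01 TPM in wild-type libraries, where 1 library reached 520 TPM, while the median difference over the 7 genes above the minimum was -0.43 log2 units. Epithelial genes had medians of 18.9 TPM in Axin2-null and 15.2 TPM in wild-type libraries, with Cdh1, Cldn4 and Cldn7 at 0 in all 25. The part of these markers in the differences below was not tested, and that of the number of genes detected was looked at only by leaving out the 4 libraries.

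The 8 members at least 1 unit higher in wild type were 4 semaphorins, 3 Eph receptors and 1 ephrin. Sema6a, the class 6 ligand of plexin-A2 and plexin-A4, had a lowest, median and highest value of 0, 0.98 and 23.4 TPM in Axin2-null against 1.08, 9.39 and 28.0 TPM in wild-type libraries. It was detected in 6 of 13 Axin2-null and in all 12 wild-type libraries, with a difference of -1.61 log2 units, or -1.02 without the 4 libraries. Sema5b had 0, 7.12 and 24.5 TPM in Axin2-null against 7.24, 18.4 and 37.4 TPM in wild-type libraries, a difference of -1.40 log2 units, or -1.09 without the 4. The wild-type libraries never reached 0 for either gene, and the ranges overlapped. Ephb6, an Eph receptor without kinase activity, had 0, 0 and 27.5 TPM in Axin2-null against 0, 6.04 and 22.0 TPM in wild-type libraries (-1.39 log2 units, or -1.51 without the 4). Sema5a, which also passed between the diencephalic regions, had 0, 0.90 and 6.66 TPM in Axin2-null against 0, 2.67 and 16.5 TPM in wild-type libraries (-1.07 log2 units, or -1.01 without the 4). These 4 stayed at least 1 unit apart without the 4 libraries.

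The other 4 did not stay past 1 unit. Epha4 had 0, 17.9 and 37.7 TPM in Axin2-null against 16.9, 26.1 and 54.2 TPM in wild-type libraries, a difference of -1.34 log2 units, or -0.55 without the 4. Sema3c had 0, 0 and 10.9 TPM in Axin2-null against 0, 3.43 and 20.7 TPM in wild-type libraries (-1.33, or -0.97 without the 4), and Epha7 had 0, 4 and 26.9 TPM in Axin2-null against 1.61, 11.02 and 69.9 TPM in wild-type libraries (-1.33, or -0.94). Epha4 thus differed mostly through its lowest Axin2-null libraries, while Sema3c was at or near 0 in most of them. Efnb3 lies on chromosome 11, which carries the MADM-11 markers, and the part of that chromosome in its difference was not tested. It had 0, 2.59 and 6.64 TPM in Axin2-null against 0, 7.02 and 34.4 TPM in wild-type libraries, and at -1.0025 log2 units (-0.49 without the 4) it lay just inside the limit. Epha5, just outside at -0.99854, had 0.21, 11.4 and 32.5 TPM in Axin2-null against 3.23, 22.7 and 43.5 TPM in wild-type libraries.

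**Figure D4:**
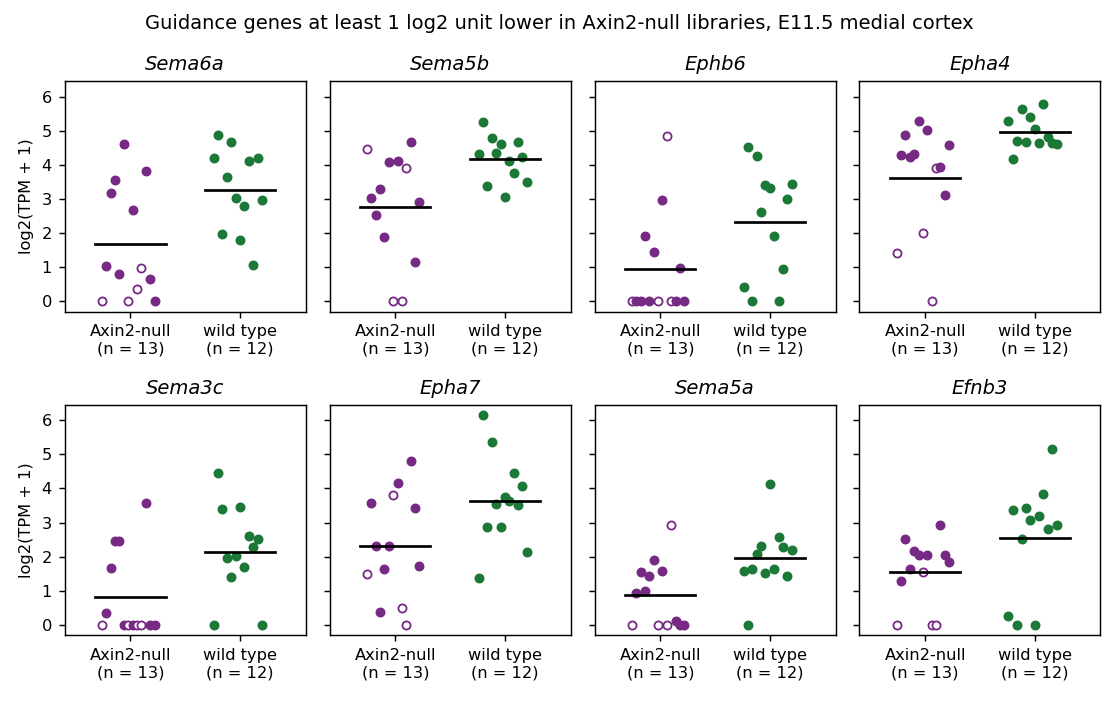
Log2(TPM + 1) of the 8 guidance genes at least 1 log2 unit lower in Axin2-null, for 13 Axin2-null libraries (purple, open where fewer than 10000 genes were above 0) and 12 wild-type libraries (green), with a bar at the mean of each genotype. The genotypes overlap for every gene, and for Epha4 the 3 lowest points are open ones.

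Levels in the cortex were highest for Plxnb2, Efnb1 and Epha4, the last described above. Plxnb2, the highest of all members, had a lowest, median and highest value of 13.95, 62.7 and 239.8 TPM in Axin2-null against 49.7, 91.2 and 137 TPM in wild-type libraries and was detected in all 25. Efnb1 followed with 4.58, 19.0 and 46.9 TPM in Axin2-null against 6.27, 34.5 and 71.1 TPM in wild-type libraries. The differences were -0.56 for Plxnb2 (-0.46 without the 4 libraries) and -0.68 for Efnb1 (-0.90 without the 4), and the genotypes overlapped. Robo3 reached 131 TPM in 1 Axin2-null library, with a median of 9.68 TPM in Axin2-null against 13.6 TPM in wild-type libraries (-0.64 log2 units, or -0.95 without the 4). Efna1 had the largest difference towards Axin2-null with all libraries, at 0.74 log2 units (0.67 without the 4), with 0, 14.1 and 36.5 TPM in Axin2-null against 0, 6.54 and 19.5 TPM in wild-type libraries. Without the 4 libraries the largest was that of Efna4, at 0.91 log2 units against 0.12 with all.

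Slit2, the higher of the Slit ligands, had a lowest, median and highest value of 0, 7.01 and 30.9 TPM in Axin2-null against 3.80, 14.1 and 26.1 TPM in wild-type libraries (-0.93 log2 units, or -0.38 without the 4). Plxna3 had 0, 8.67 and 26.1 TPM in Axin2-null against 0.56, 5.93 and 44.2 TPM in wild-type libraries. Its difference was -0.22 log2 units with all libraries and 0.21 without the 4. Dcc, which lies first among the netrin receptors here, had 0, 4.55 and 49.9 TPM in Axin2-null against 0.68, 11.1 and 69.1 TPM in wild-type libraries (-0.86 log2 units, or -0.60 without the 4). Unc5b was far lower, with medians of 1.30 TPM in Axin2-null and 0.83 TPM in wild-type libraries (-0.03 log2 units, or 0.11 without the 4). For none of these genes did the genotypes separate.

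The genes called between the diencephalic regions spanned a wide range of levels in the cortical libraries. Averaged over the 25 libraries, Efnb1 stood at 28.9 TPM, Epha4 at 23.8, Robo3 at 18.8, Epha5 at 16.9, Ephb1 at 14.4 and Epha7 at 12.1 TPM. Efna5, Efnb2, Efna3, Efna4, Ephb4 and Plxna2 followed at between 6.10 and 9.43 TPM, and Plxnd1, Robo1, Sema6d, Sema5a and Plxnc1 at between 1.94 and 4.52 TPM. Plxna4 and Unc5c stayed under 1 TPM, and Epha8 averaged 0.0468 TPM with a value of 1 TPM or more in 1 library. Plxna2 and Plxna4, at like levels per length within each diencephalic region, averaged 6.10 and 0.774 TPM in the cortical libraries. Embryonic day, library method and measure differ between the bulk and the Smart-seq2 data, and this contrast was not tested. The 23 members under the mean of 1 TPM included all the netrins of the rule (Ntn1, Ntn3, Ntn4 and Ntn5), and Epha10 and Plxnb3 were listed at 0 in all 25 libraries.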

How the data were processed

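Bulk RNA-seq covered 3 dorsal and 3 ventral diencephalon libraries, and Smart-seq2 covered 13 Axin2-null and 12 wild-type libraries. The submitters' processing notes name Trimmomatic, STAR 2.7.0a and featureCounts and the builds mm10 and GRCm38, with neither roles nor a strand setting. The deposited bulk table is named TPM but holds estimated counts: its columns sum to 17604166 to 20838002 after rounding, and whole numbers, to within 0.01, make up 50.2% of the values above 0. It was rounded to whole counts. Of the members in it, 34 had a fractional value in at least 1 library, and 18 members share exon sequence with another gene. The deposited Smart-seq2 table holds TPM, and its columns are named by the letter G or R and a number. The genotype was read from the sample descriptions, where Green goes with Axin2(-/-) and Red with Axin2(+/+). Marker colour and genotype therefore cannot be told apart, and the column numbers are not tied to numbered samples. Symbols came from GENCODE M21 for 34651 of 34865 bulk and 55227 of 55487 Smart-seq2 identifiers, matched without their version number.

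A mean of 1 CPM or more over the 6 libraries was required of a gene. The test was that of edgeR 4.0.16 in R 4.3.3 (TMM scaling, quasi-likelihood F test), with Benjamini-Hochberg adjustment over all 14701 genes and a threshold of 0.05. The procedure was tested on simulated counts. CPM values are on the TMM-scaled library sizes. Alternatives were DESeq2 size factors in edgeR, DESeq2 1.42.0, limma 3.58.1 with voom, no filter on low counts, a minimum of 0.5 CPM in both regions, a replicate block, each library left out in turn, and, added after seeing the data, libraries 1 and 2 of each region alone, 13 in all. For Smart-seq2, genes averaging 1 TPM or more were compared by the difference of mean log2(TPM + 1). A gene counted as detected at 1 TPM, and a difference of 1 log2 unit was counted.

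Members, lists and motifs were chosen with earlier results of these data known. Named in the text are all members past the threshold, the members of each family with the highest levels, members past 1 log2 unit in Smart-seq2, and the 3 effectors and 3 other guidance genes per direction with the largest fold changes past the threshold. Further members are named by their place in a family, their position beside another member or after their values were seen, among them Epha3, Slit1, Slit2, Sema5b, Sema4a, Nrp1, Nrp2, Ntn1 and Ephb2. Promoter sequences are from RefSeq on GRCm38.p6. No genome sequence or protein sequence was used here. Part of the cortex list is not reported here and was left out of its counts and sums.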

Additional observations from a re-analysis of the deposited data

How the results depend on the processing

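No call between the regions or the genotypes reversed its direction in any alternative. With 1 library left out in turn, the number of members higher in dorsal ranged from 11 to 24 and of those higher in ventral from 1 to 3. Over all genes the same range was 498 to 1695 higher in dorsal and 843 to 1928 higher in ventral. For the effectors it was 3 to 14 in dorsal and 2 to 4 in ventral, and for the other guidance genes 14 to 28 in dorsal and 0 to 2 in ventral. Leaving out library 3 of either region raised the dorsal counts and leaving out library 1 or 2 lowered them. Libraries 1 and 2 alone gave 43 members higher in dorsal and 6 in ventral, 3843 and 4117 over all genes, 28 and 11 effectors, and 37 and 4 other guidance genes. DESeq2 called 6 effectors higher in ventral, against 3. With a minimum of 0.5 CPM in both regions, 821 genes and 1 other guidance gene were higher in ventral, where fewer genes were tested. The replicate numbers were not taken to pair the libraries, since deviations of same-numbered libraries correlated at 0.0708, 0.0973 and 0.114 and dorsal library 2 correlated best with ventral library 1. The replicate block gave 17 members higher in dorsal and 2 higher in ventral, 924 and 1083 over all genes, losing the calls of Efna4 and Plxnc1 and gaining that of Slit1, and 1 other guidance gene was higher in ventral. In Smart-seq2, a pseudocount of 0.1 TPM put 1 member past 1 log2 unit towards Axin2-null and 25 towards wild type, a pseudocount of 10 TPM put 0 towards wild type, and medians in place of means put 1 towards Axin2-null and 14 towards wild type. The shares of all genes past 1 unit at these settings are not given here, so these counts describe the settings only. Without the 4 Axin2-null libraries with the fewest genes, 4 members were higher in wild type (4.42% of all genes). The causes were not tested. The 6 members under the minimum of 1 CPM were tested only with lower filters and passed in none, and TPM keeps no depth, so a 0 in Smart-seq2 says only that a gene is listed at 0.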
